A study of Gallus gallus with 6 samples.

Results

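The cytosolic ribosomal protein genes of chicken neural crest cultures were followed through 6 h of exposure to homocysteine. Members were chosen by gene symbol alone: RPL or RPS followed by a number, with or without an A, X, Y or L ending, together with RPLP0, RPLP1, RPLP2 and RPSA. The kinases whose symbols begin with RPS6K were left out. A gene with several probe sets was read by the one with the highest mean intensity over the 6 arrays. This gave 66 members among 13009 genes with a single symbol, 43 of the large subunit (RPL and RPLP) and 23 of the small subunit (RPS), which carried 139 probe sets in all. No member came under the symbol RPSA, because the platform annotation lists that gene as RPSAP58, with RPSA as a synonym in RefSeq. Ribosomal proteins with no probe set under a symbol of this form, RPS19 among them, were not analysed here.

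Neural tube explants of stage 9+ chicken embryos gave the cultures, whose migrating cells are neural crest. After 4 h the cultures received media alone (control, 3 arrays) or homocysteine at a final concentration of 100 uM (3 arrays), and exposure lasted 6 h in both groups. Homocysteine is a sulfur amino acid formed in the methionine cycle. Strain, pooling and the number of embryos per culture are not given in the labels, and the extraction protocol is worded for whole embryos or tissues. Arrays are numbered 1 to 3 in each group, with no statement that they came from separate cultures, and the p-values therefore rest on array-to-array spread that may be technical.

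The ribosome is the particle that translates mRNA. Its large subunit forms peptide bonds, and its small subunit decodes the message. Most of its proteins are made from short, abundant mRNAs that begin with a run of pyrimidines and are translated under the control of the kinase mTOR. In people, mutations of several ribosomal protein genes cause Diamond-Blackfan anaemia, and loss of the ribosome assembly factor TCOF1 causes a craniofacial syndrome of neural crest origin.

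Of 12 neural crest markers, 11 were above background on all 6 arrays. An array's background was the 95th percentile of probe sets for sequences foreign to chicken, between 53.2 and 84.9. The crest markers SOX9 and TFAP2A were dim, at 206 and 194 in control. Of 7 neuronal markers 6 were above background on all 6 arrays, with DCX and NEFM the bright ones. So were 2 of 3 surface ectoderm markers. Of these, EPCAM gave 6007 in control and 4856 with homocysteine, while TP63 gave 216 and 296. The summed surface ectoderm markers overlapped between groups, from 3790 to 7970.5 in control and 4468 to 5922 with homocysteine. Among crest markers SOX10 gave 4239 and 4386, and SNAI2 gave 3100 and 2404. Of the mesodermal markers 2 of 6 were above background on all 6 arrays, and of the blood and endothelial ones 3 of 7. Among all 13009 genes, 7925 were above background on all 6 arrays. The arrays numbered 1 stood apart in both groups. Their ratio of 5' to 3' signal for ACTB was 0.0572 in control and 0.059 with homocysteine, against 0.238 to 0.421 on the other 4 arrays.

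Ribosomal protein genes were among the brightest features of every array. The brightest probe set on each of the 6 arrays belonged to one of them, and between 35 and 44 of the 66 lay among the 100 brightest of 38382 probe sets. The median member intensity per array ran from 23337 on homocysteine 1 to 28835 on homocysteine 2, against array medians of 57.7 to 70.8 over all probe sets. Members are read by the brightest probe set of each gene, which raises this contrast. With all genes read that way, the median of the 6-array means was 249, and 1058 in genes above background on all 6 arrays. For the members it was 25802.5. Together the 66 chosen probe sets carried 4.64% to 5.63% of the summed intensity of an array. Averaged over the 6 arrays, 49 members exceeded 20000, as did 65 other genes, and 7 members lay under 5000. Intensity depends on the probes as well as on the transcript, so the order of genes by brightness is not an order of transcript abundance.

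**Figure D1:**
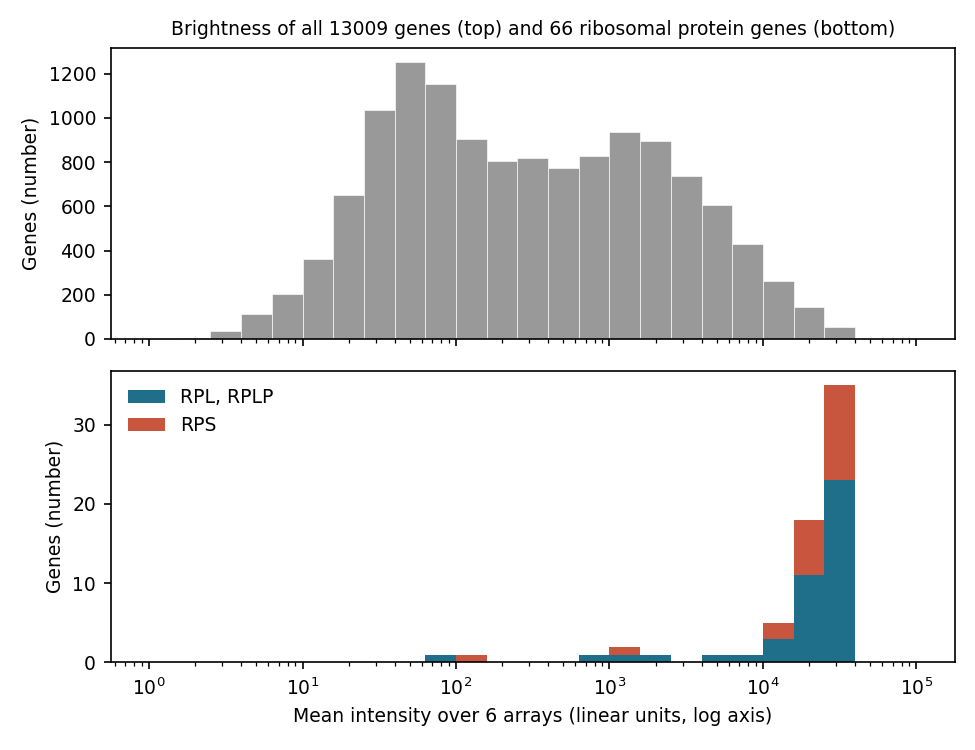
Number of genes by mean intensity over the 6 arrays (log axis), for all 13009 genes above and for the 66 ribosomal protein genes below, coloured by subunit. The 49 members over 20000 form the right-hand peak, and 7 members lie below 5000.

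RPL35, a protein near the exit of the nascent peptide on the large subunit, had the brightest probe set. It read 40086, 36987 and 33783 in control 1 to 3 and 38468, 38246 and 40506 in homocysteine 1 to 3. RPS16, of the small subunit, followed with 38050, 36904 and 33359 in control and 37027, 38878 and 38955 with homocysteine. In both genes the groups overlapped, and control 3 was the lowest array. RPL37, RPL19 and RPS20 completed the 5 brightest, with means of 35136, 34722 and 34658.

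RPS6, the small subunit protein phosphorylated by S6 kinases downstream of mTOR, gave 31734 ± 2120 in control and 33229 ± 658 with homocysteine (SD, 3 arrays a group). RPL5 and RPL11 bind the 5S ribosomal RNA, and in mammals they also bind MDM2 when ribosome assembly fails. RPL5 gave 22942 ± 924 and 24350 ± 1900, and RPL11 gave 31169 ± 1537 and 32733 ± 436 (SD, 3 arrays a group). The log2 changes of these 3 genes, homocysteine minus control, lay between 0.07 and 0.08, and each 95% interval spanned 0, that of RPS6 reaching from -0.54 to 0.67.

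The stalk proteins, which recruit translation factors to the large subunit, were less even. RPLP0, the base of the stalk, read 11550, 27704 and 23736 in control 1 to 3 and 12698, 30368 and 20121 in homocysteine 1 to 3. RPLP1, which binds to RPLP0 as a dimer with RPLP2, read 10959, 22914 and 21155 in control and 11712, 23880 and 21721 with homocysteine. Both genes were lowest on the arrays numbered 1 of either group, and their groups overlapped. RPLP2 varied less, with 15543 ± 1090 in control and 16851 ± 1306 with homocysteine (SD, 3 arrays a group).

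Large and small subunit genes had like median brightness on 4 of the arrays, and their medians lay somewhat further apart on the arrays numbered 1. The median log2 intensity of RPL genes minus that of RPS genes was -0.16 on control 1 and -0.15 on homocysteine 1. It was 0.0097 and -0.0098 on control 2 and 3, and 0.022 and 0.036 on homocysteine 2 and 3. The interquartile range of all members in log2 was 0.95 on control 1 and 0.91 on homocysteine 1, wider than the gap between the subunits. On the linear scale the control 1 medians were 23002 for RPL and 25618 for RPS, and those of control 2 were 26687 and 26509. Members lower on the arrays numbered 1 than on the other 4 made up 36 of 43 RPL genes and 17 of 23 RPS genes, or 83.7% and 73.9%. The same held for 50.3% of genes above background on all 6 arrays and 53.8% of the other genes over 20000. The medians of that log2 difference were -0.22 and -0.12. The low 5' to 3' ratios stand beside this gap on the same arrays, and their part in it was not tested.

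Homocysteine was compared with control to learn whether this machinery changes within 6 h. No member passed the threshold: 0 of 66 had an adjusted p under 0.05 (limma, Benjamini-Hochberg over all 38382 probe sets), where 0% of all probe sets were called. At an unadjusted p under 0.05 there were also 0 members, against 2.26% of all genes. Of the 7925 genes above background on all 6 arrays only 6 reached it, and of the 65 other genes over 20000, 0 did. A count of 0 members is therefore near the share of genes of like brightness. The smallest adjusted p among the members was 0.9999. In the median member the 95% interval extended 0.64 in log2 above and below the change. That width is not the spread of the members alone, since the fit draws each spread toward one pooled over dim probe sets as well. The members' own median SD in log2 was 0.13 in control and 0.16 with homocysteine. With 3 arrays in each group, the smallest two-sided p of an exact permutation test is 0.1. In bulk RNA, a change in the number of cells of a type and a change in RNA per cell cannot be told apart.

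Most log2 changes were small and positive. The value was above 0 in 58 of 66 members, 38 of 43 RPL and 20 of 23 RPS, where 51.6% of all genes and 50.9% of genes above background on all 6 arrays were positive. The median was 0.08 over the members, 0.0084 over all genes and 0.0036 over genes above background on all 6 arrays. Subunits were alike here, with medians of 0.0823 for RPL and 0.0801 for RPS genes. The split depended on scaling: it was 37 positive to 29 negative after quantile normalization, with a median of 0.01, and 43 to 23 with arrays centred on their medians. With dim values raised to background, the median of all genes was 0.0747, beside 0.0777 for the members. It also rested on single arrays, since 37 members were positive without control replicate 1 and 38 without homocysteine replicate 2.

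Other very bright genes also had mostly positive values. Of the 65 genes over 20000 that are not members, 58 had a positive log2 change, or 89.2%, beside 87.9% of members, and their median was 0.07. These 65 genes hold translation factors (EEF1A1, EEF2), glycolytic enzymes (GAPDH, ENO1), chaperones (HSPA8, HSP90AA1) and RPSAP58, a ribosomal protein gene that fell outside the rule. The set was chosen by brightness alone and was not cleared of other genes tied to the ribosome, such as RACK1. All 49 members over 20000 were positive, while 9 of the 17 dimmer members were. The difference between members and other bright genes was not tested.

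The tilt differed between same-numbered arrays. Homocysteine 1 exceeded control 1 in 33 of 66 members, where 51.4% of genes above background on all 6 arrays did. Homocysteine 2 exceeded control 2 in 60 members, against 52.9%, and homocysteine 3 exceeded control 3 in 47, against 47% of genes. The median differences of the members were 0.0049, 0.0972 and 0.13 in log2. For the other 65 bright genes they were 0.0068, 0.0461 and 0.18, with 34, 41 and 59 genes positive. Among members the count of positive genes was thus highest in pair 2 and the median in pair 3, and among the other bright genes both were highest in pair 3. The 17 members under 20000 had a median of -0.12 in pair 3. All 3 pairs were positive in 17 members, where 12.2% of genes were, and all 3 were negative in 1 member, RPL22L1, where 12.5% of genes were. Among the 65 other bright genes, all 3 pairs were positive in 18 and negative in 1.

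**Figure D2:**
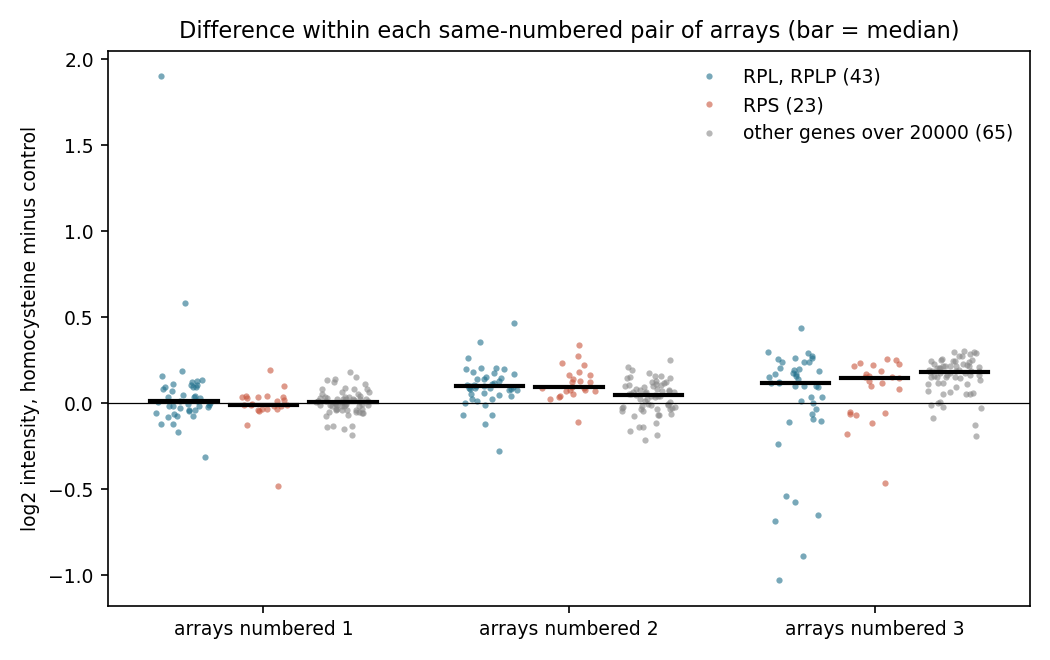
Log2 intensity of homocysteine minus control within each pair of arrays of the same number, for RPL genes, RPS genes and the 65 other genes over 20000; points are genes and bars are medians. Member medians are near 0 in pair 1 and above 0 in pairs 2 and 3, as are those of the other bright genes, and a tail of members lies below 0 in pair 3.

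In 3 members every homocysteine array was above every control array, where 1.75% of genes above background on all 6 arrays were, and in 0 members below, where 1.64% were. Of the 65 other genes over 20000, 3 were likewise above and 0 below. RPL23A, which sits at the exit of the peptide tunnel, read 25403, 25555 and 22070 in control 1 to 3 and 25658, 29046 and 29913 in homocysteine 1 to 3. The groups were separated by the narrow gap between control 2 and homocysteine 1, and pair 1 differed by 0.014 in log2. Its log2 change of 0.21, with an interval from -0.41 to 0.84, was the largest positive one among members above background on all 6 arrays and did not pass (limma adjusted p = 0.9999).

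RPL38, whose loss in mice alters translation of Hox mRNAs and the body axis, read 31854, 32708 and 28064 in control and 32756, 32788 and 33099 with homocysteine. RPS15A, of the small subunit, read 25902, 26509 and 24100 in control and 26598, 27933 and 26795 with homocysteine. In both genes control 3 was low, and the other 2 control arrays lay close under the homocysteine arrays. Their log2 changes were 0.0940 and 0.0889. RPL38 turned to -0.14 when all probe sets of the gene were averaged, among them a dim one at -1.16 that was above background on 5 arrays. The mean of its probe sets above background on all arrays was 0.12. The lack of overlap held only in the brightest probe set of RPL38 and of RPS15A. The next brightest RPL38 set read 12435, 18911 and 21307 in control and 15093, 22292.5 and 22331 with homocysteine. The other RPS15A set read 23123, 20813 and 16661 in control and 24752, 21204 and 23740 with homocysteine. Their log2 changes were also positive, at 0.19 and 0.21.

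The other members with the largest positive changes were RPL3L, RPL22, RPL29 and RPL7L1, and the largest negative ones were RPL22L1, RPL7A, RPL34, RPL35A and RPS28. RPL29, of the large subunit, gave 9639 ± 1242 and 10646 ± 1458 in the control and homocysteine groups (SD, 3 arrays a group). Its log2 change was 0.14. Another RPL29 probe set above background on all 6 arrays had the other sign, at -0.20, with 7951 ± 3666 and 6639 ± 1955 (SD, 3 arrays a group). The interval of each of these genes spanned 0, and none passed.

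The paralog pair RPL22 and RPL22L1 lay at opposite ends of this ranking. RPL22 and its paralog can both enter the large subunit, and in mice the RPL22 protein represses Rpl22l1. RPL22 read 24381, 28077 and 25325 in control 1 to 3 and 25858, 31007 and 30647 in homocysteine 1 to 3, higher with homocysteine in each pair. RPL22L1 read 3431, 5664 and 5836 in control and 3063, 4669 and 3718 with homocysteine, lower in each pair. The groups overlapped in both genes. The log2 changes were 0.17 for RPL22 (interval -0.46 to 0.80) and -0.36 for RPL22L1 (interval -1.22 to 0.49), both with an adjusted p of 0.9999 (limma). A dimmer RPL22L1 probe set had the other sign, with 179 ± 52.5 for control against 232 ± 93.1 for homocysteine (SD, 3 arrays a group), and the dimmest had -0.62. The log2 change of RPL22L1 was -0.61 without control replicate 1, -0.23 without control replicate 3 and -0.22 without homocysteine replicate 1, and -0.0103 for the mean of its probe sets above background on all arrays. After quantile normalization the log2 change was 0.0793 for RPL22 and -0.39 for RPL22L1. All 49 members over 20000, RPL22 among them, were positive in the reported fit, with a median of 0.0836. The difference between RPL22 and RPL22L1 was not tested.

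Among the other members named as paralogs, RPL3L stood at background. RPL3L replaces RPL3 in striated muscle of mammals. It read 17.5, 90.6 and 77.6 in control and 65.5, 92.2 and 38 with homocysteine, above background on 2 control arrays and 1 homocysteine array. RPL3 itself gave 26625 ± 1096 and 28045 ± 1429 (SD, 3 arrays a group). RPL3L and RPS2 are near neighbours in the RefSeq gene order of assembly GRCg7b, with 1 protein-coding gene between them, yet RPS2 read 34079 on average.

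RPS27L, a paralog of RPS27 that p53 induces in human cells, gave 1062 ± 201 in control and 1151 ± 200 with homocysteine (SD, 3 arrays a group). RPL7L1, a relative of RPL7, gave 9531 ± 844 and 10521 ± 1342, beside 20790 ± 3913 and 21050 ± 2690 for RPL7 (SD, 3 arrays a group). RPL39L and RPL26L1 read as brightly as the main body of members, at 23348 and 29452 on average. RefSeq lists RPL39 and RPL26 as synonyms of these chicken genes, so the L in their symbols may not mark a second copy. Likewise RPS4Y1, at 25591 on average, has RPS4X as a synonym. Whether chicken also has separate genes under the synonyms was not checked.

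The dimmest members were RPL3L, RPS13, RPL31, RPS27L and RPL34. RPS13, of the small subunit, read 142, 87.6 and 112 in control 1 to 3 and 102, 103 and 132 in homocysteine 1 to 3. Its 5 probe sets averaged between 20.2 and 113. A further probe set, which the annotation gives to both GNAL and RPS13 and which therefore fell outside the rule, read 29416, 30326 and 26812 in control and 29070, 30694 and 32028 with homocysteine. The low level of RPS13 was thus that of probe sets with this symbol alone, and the shared probe set was as bright as the other members. That probe set and the RPSAP58 sets were picked after their values were seen.

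RPL31 and RPL34, both of the large subunit, were dim in each of their probe sets. RPL31 gave 751 ± 44.4 in control and 755 ± 258 with homocysteine, and RPL34 gave 1388 ± 473 and 1166 ± 374 (SD, 3 arrays a group). RPL23, also of the large subunit and picked after its values were seen, read 1089, 2522 and 2128 in control and 1633, 3235 and 1432 with homocysteine. RPSAP58, the gene with RPSA as synonym, gave 24681 ± 3973 and 25656 ± 3190 by its brightest probe set (SD, 3 arrays a group).

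Members varied in how low they were on the arrays numbered 1. In 16 of 66, or 24.2%, the mean log2 intensity of the arrays numbered 1 was more than 0.5 below that of the other 4. So it was in 19.7% of genes above background on all 6 arrays and 6.15% of the 65 other genes over 20000. By brightness the share was 12.2% of the 49 members over 20000 and 58.8% of the 17 members under 20000. Whether members differed from genes of like brightness in this was not tested. The member values form a continuum, with RPS26 at -0.545 just inside the limit of -0.5 and RPL12 at -0.495 just outside. The largest differences were -1.56 for RPL35A, -1.30 for RPS29, and -1.06 for both RPLP0 and RPL3L. That of RPL3L came from control 1 alone, where it read 17.5, below background. Its difference was -2.26 within control and 0.15 within homocysteine. RPL35A, a large subunit protein mutated in Diamond-Blackfan anaemia, read 4594, 13342 and 11384 in control 1 to 3 and 3702, 13754 and 10596 in homocysteine 1 to 3. RPS29, a small zinc-binding protein of the small subunit, read 5622, 15537 and 13553 in control and 5801, 18790 and 9838 with homocysteine. In both genes the arrays numbered 1 of either group were the lowest. At the other end RPL30, RPS13, RPS3A and RPS7 had the largest positive values, with differences of 0.17, 0.16, 0.10 and 0.08.

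**Figure D3:**
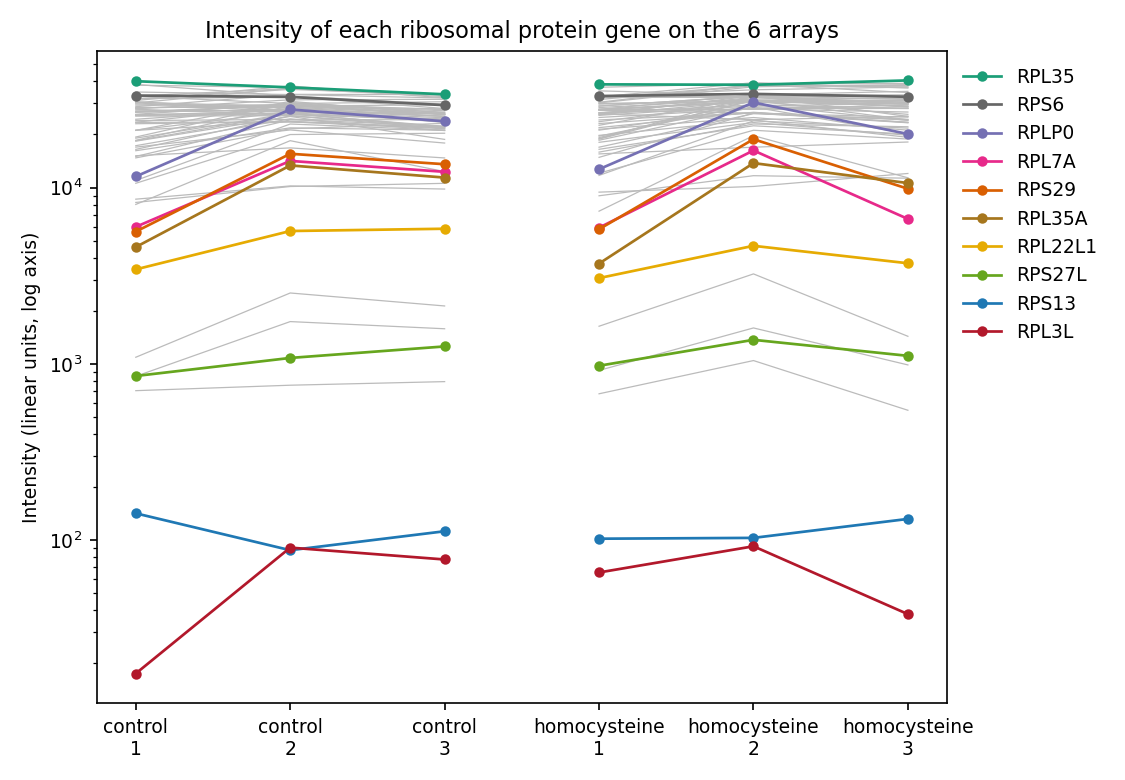
Intensity (log axis) of each ribosomal protein gene on the 6 arrays, with 10 genes in colour and the rest in grey; lines only join the values of a gene within its group. RPL35A, RPS29, RPL7A and RPLP0 dip on the arrays numbered 1 of both groups, while RPL35 and RPS6 vary little.

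Most of these 16 members were also lower with homocysteine in pair 3. Homocysteine 3 exceeded control 3 in 2 of the 16 and in 45 of the other 50, with median log2 differences of -0.11 and 0.16. RPL7A, of the large subunit, read 12272 on control 3 and 6633 on homocysteine 3, a difference of -0.89. RPS28, of the small subunit, read 12316 and 11355 on these arrays. RPL34 read 1580 and 985, and RPL35A 11384 and 10596.

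Genes at large also differed this way. Homocysteine 3 exceeded control 3 in 26.4% of the 1558 genes above background that were lower by over 0.5 on the arrays numbered 1, and in 52% of the other 6367. The median log2 differences were -0.24 and 0.0171. Whether members differed from genes at large in this was not tested. Homocysteine 3 also had lower 5' to 3' ratios than control 3, at 0.238 against 0.287 for ACTB and 0.456 against 0.663 for GAPDH. The part of these ratios in the differences was not tested. The median log2 change over all 3 pairs was 0.014 in the 16 members and 0.0848 in the other 50. The groups of 16 and 50 were formed after the values were seen, so they carry no test.

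**Figure D4:**
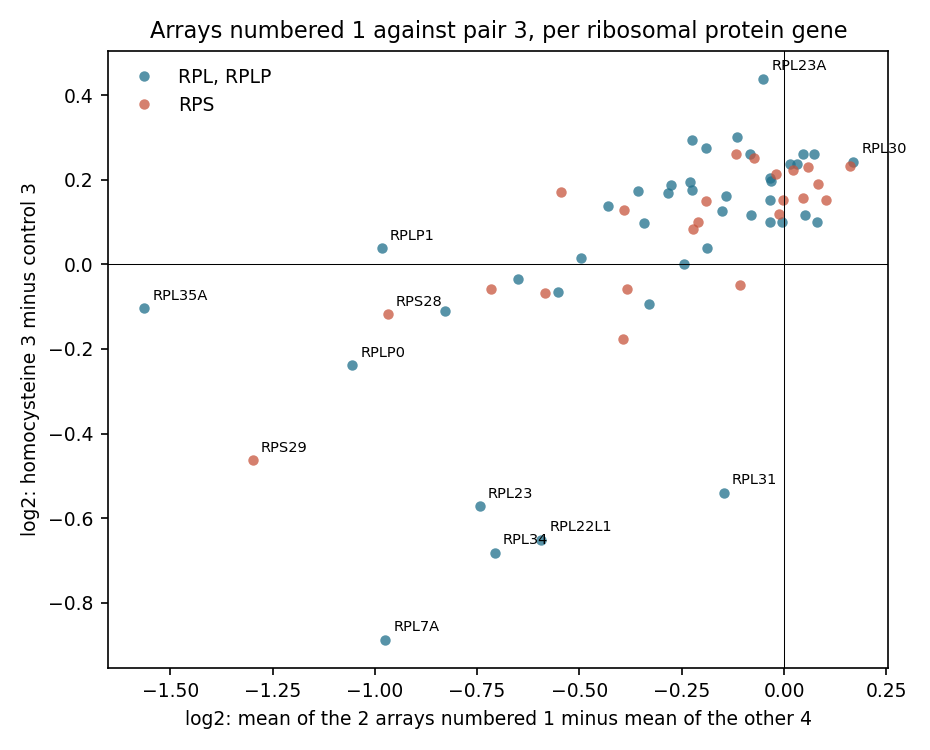
Each point is a ribosomal protein gene above background on all 6 arrays, 65 in all; the x axis is the log2 mean of both arrays numbered 1 minus that of the other 4, and the y axis is homocysteine 3 minus control 3 in log2. Genes left of -0.5 lie below 0 on the y axis except RPLP1 and RPS26, and most others lie above 0.

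Probe sets of one gene differed less where they were bright. Of 34 members with several probe sets, 28 had several above background on all 6 arrays, and in 14 of these the log2 changes differed in sign. The widest ranges were 0.71 for RPL22L1, 0.68 for RPL21, 0.51 for RPL27A, 0.49 for RPL24 and 0.46 for RPL13. Each of these 5 genes had a further probe set at or below 429 on average. Among the 11 members with several probe sets over 10000, the range was at most 0.12 and its median was 0.0859, with 3 genes of mixed sign. RPS2 and RPL19 had the closest pairs, with ranges of 0.0013 and 0.0235.

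**Figure D5:**
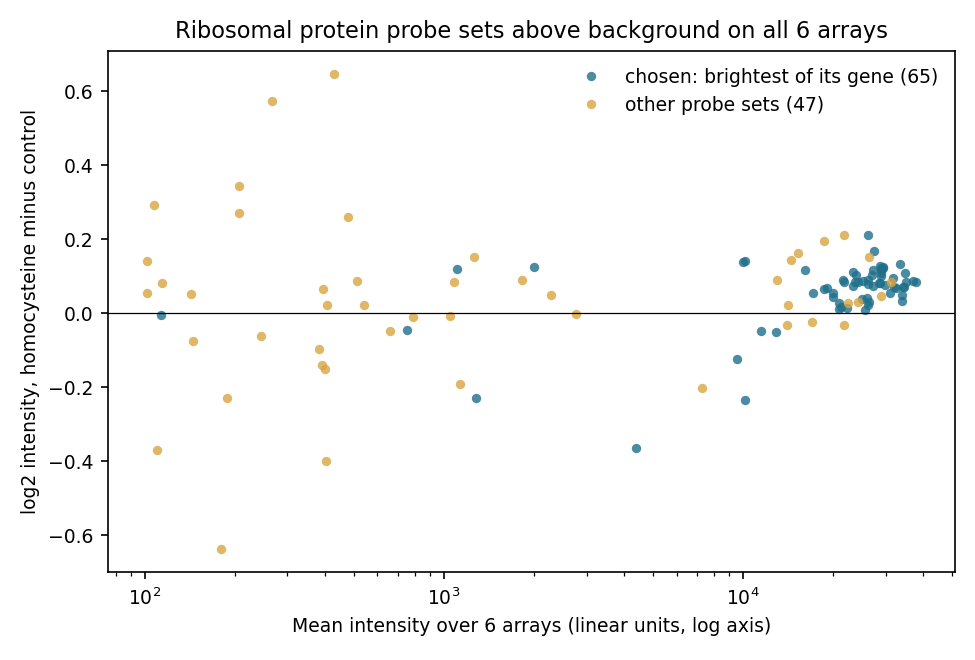
Log2 change (homocysteine minus control) against mean intensity (log axis) for the 112 ribosomal protein probe sets above background on all 6 arrays, with the chosen probe set of each gene in blue and the others in yellow. The points spread between -0.64 and 0.65 at low intensity and narrow at the bright end, where most are small and positive.

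Genes that build, regulate or resemble the cytosolic ribosome gave 0 calls in each of the following lists (limma, adjusted p over all probe sets). Over all probe sets 0% were called. At an unadjusted p under 0.05 there were also 0 genes of these lists, against 2.26% of all genes. Among the 7925 genes above background on all 6 arrays, as most of the listed genes were, only 6 reached it. Log2 changes were positive in 51.6% of all genes and in 89.2% of the other genes over 20000. Among 67 mitochondrial ribosomal proteins, which form the separate ribosome of the organelle, log2 changes were positive in 34 and negative in 33, with a median of 0.0034. Their medians by pair were 0.0851, 0.0483 and -0.11. In pair 3 the median was 0.13 over the 66 cytosolic members but -0.12 in the 17 of them under 20000. Over all genes it was -0.0427. Of the 67 mitochondrial genes 0 exceeded 20000, and their median intensity was 2569. They were lower on the arrays numbered 1, with a median difference of -0.39, or -0.47 for MRPL and -0.35 for MRPS genes. The 2 with the smallest p were MRPL30 and MRPS31. MRPS31 gave 5315 ± 217 in control and 6336 ± 733 with homocysteine (SD, 3 arrays a group). MRPL30 was not above background on any array.

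Of 64 measured genes of ribosome biogenesis in the nucleolus, 34 were positive and 30 negative, with a median of 0.0086. NOC2L gave 2170 ± 346 in control and 1543 ± 173 with homocysteine, and NOP14 gave 1702 ± 178 and 1335 ± 223 (SD, 3 arrays a group). These 2 had the smallest p in the list, as do the pair named in each list that follows, and both encode nucleolar assembly factors. Of 15 genes of RNA polymerase I, which transcribes ribosomal RNA, 7 were positive and 8 negative, with a median of -0.0027. In that list POLR1B was not above background on any array, and TAF1D gave 1998 ± 345 and 1786 ± 144 (SD, 3 arrays a group).

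A list of elongation factors and mRNAs named for a 5' pyrimidine run had 15 positive and 6 negative log2 changes among 21. Their median was 0.07. The list was made by symbol, and the run was not checked in the chicken sequences. NACA, a nascent chain binding protein, gave 10719 ± 2729 in control and 12617 ± 2991 with homocysteine (SD, 3 arrays a group), and EIF4B was above background on 3 of the 6 arrays. Translation initiation factors had 20 positive and 8 negative among 28, with a median of 0.07. EIF1, which helps select the start codon, gave 9284 ± 701 and 10839 ± 135, and EIF3A gave 4439 ± 480 and 3821 ± 469 (SD, 3 arrays a group). Genes of mTOR signalling had 14 positive and 12 negative among 26, with a median of 0.0275, and the 2 with the smallest p, TSC2 and RPS6KB2, were below background on all 6 arrays.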

How the data were processed

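The deposited table holds linear intensity values per probe set of a 1-colour Affymetrix chicken array. RMA is named in the submitters' processing notes, with no version. The authors' deposited intensity values are not in the form RMA gives: they are linear and their quantiles differ between arrays. The labels name Cy3 and Cy5, but the table has 1 value per array. Values were log2 transformed as deposited, without an offset. The 96 Affymetrix control and 57 reporter sets were set aside. The other 38382 probe sets were tested with limma 3.58.1 in R 4.3.3 (lmFit, eBayes, two-sided, threshold 0.05). On simulated data the fit recovered only changes far larger than those measured in the members. The simulated noise had the moderated spread of each probe set and was independent between arrays. It therefore lacked the spread that same-numbered arrays share. Recovery was not measured for the members apart. Symbols came from the platform annotation, and all 66 members matched a RefSeq gene (GRCg7b).

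The members, lists and settings were chosen with earlier results of these data known. Named members are the 5 largest changes each way, the 5 brightest and 5 dimmest, those without overlap, the 4 extremes each way on the arrays numbered 1, paralogs with the gene they are named after, and RPLP0, RPLP1, RPLP2, RPS6, RPL5 and RPL11. Deviations from group means of same-numbered arrays correlated by 0.17, 0.11 and 0.0486 over all probe sets and by 0.79, 0.70 and 0.33 over the 14437 above background on all arrays, so differences are given by pair. The reported fit has no block, and its intervals and p-values therefore include spread that same-numbered arrays share. With a replicate block the smallest adjusted p of a member was 0.946 (limma). Promoter and protein sequences were not analysed here. The number of arrays limits the precision.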

Additional observations from a re-analysis of the deposited data

How the results depend on the processing

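In all 18 alternatives, 0 members passed an adjusted p of 0.05, and the smallest adjusted p of a named member was 0.78. Members at an unadjusted p under 0.05 numbered 0, except for 1, RPL27A, with the mean of the probe sets above background on all arrays. The replicate block left both counts at 0 and changed no call. Quantile normalization gave 37 positive members. Leaving out each array gave 37 to 63 positive members, with 37 without control replicate 1 and 38 without homocysteine replicate 2. The median ran from 0.0194 without homocysteine replicate 2 to 0.16 without homocysteine replicate 1, and the RPL minus RPS median, 0.0022 in the fit reported, from -0.0046 to 0.0229. That last difference was -0.037 with the mean of all probe sets and -0.0048 with dim values raised. With the arrays numbered 1 left out the median was 0.12. The cause was not tested for any of these.

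Of 611 values of 34 named genes, 63 turned sign, and none of these had passed. Quantile normalization gave -0.0139 for RPL11, -0.00625 for RPL3, 0.0217 for RPL31, -0.0197 for RPL35, -0.0345 for RPL7, -0.0704 for RPLP0, -0.0102 for RPS20 and -0.0113 for RPS7. Centring gave -0.00763 for RPL30, -0.0293 for RPL7, -0.0455 for RPLP0 and -0.0179 for RPS7. Array weights gave -0.12 for RPL3L, -0.13 for RPLP0, -0.0265 for RPLP1 and 0.0878 for RPS13. The mean of all probe sets gave -0.0432 for RPL29, 0.0635 for RPL35A, -0.14 for RPL38, -0.0394 for RPLP1, -0.0178 for RPLP2, 0.32 for RPS13 and 0.0155 for RPS28. With probe sets above background only it gave -0.0236 for RPL29, 0.0635 for RPL35A, -0.0126 for RPLP1, -0.0178 for RPLP2, 0.0251 for RPS13 and 0.0155 for RPS28. Without the arrays numbered 1 the values were -0.50 for RPL3L, -0.0146 for RPL7, -0.053 for RPLP0 and 0.23 for RPS13. Leaving out each array gave -0.0396 to 0.15 for RPL30, -0.31 to 0.16 for RPL31, -0.60 to 0.44 for RPL35A, -0.00586 to 0.14 for RPL39L, -0.45 to 0.73 for RPL3L, -0.0762 to 0.18 for RPL7, -0.69 to 0.0346 for RPL7A, -0.37 to 0.33 for RPLP0, -0.27 to 0.38 for RPLP1, -0.18 to 0.17 for RPS13, -0.0304 to 0.25 for RPS27L, -0.42 to 0.29 for RPS28, -0.50 to 0.36 for RPS29 and -0.0357 to 0.0821 for RPS7.

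The moderated fit draws each spread toward one pooled over dim probe sets as well, and at 3 arrays a group its intervals are wide beside changes of this size.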
